A study of Mus musculus with 31 samples.

Results

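Hepatocytes keep their character through a small set of DNA-binding proteins that occupy the regulatory regions of liver genes and of each other's genes. The RNA levels of 9 of them, Hnf4a, Foxa1, Foxa2, Foxa3, Cebpa, Cebpb, Nr5a2, Prox1 and Onecut1, were followed in mouse livers from which Myc, Mlx or both had been deleted and in adenomas that grew in Mlx-deleted liver. They were picked by gene symbol, which found all 9 among the 41549 genes of the 5-month table and all 9 among the 36333 genes of the old-liver table. At 5 months there were 5 libraries with both genes deleted (DKO), 4 with Mlx deleted (MlxKO), 6 with Myc deleted (MycKO) and 6 wild-type (WT) ones, from mice fasted for 14 h. The old set held 5 adenomas labelled MlxKO, from mice of 14, 15 or 17 months, and 5 WT livers of 17 months, and these mice had not been fasted. Mice of every group, WT included, received tamoxifen at 75 mg/kg by intraperitoneal injection on 5 days, starting at an age of 28 days. Tamoxifen switches on a Cre recombinase fused to the oestrogen receptor (Cre-ERT2), which deletes the floxed genes. The 5-month knockouts carried the Gt(ROSA)26Sor allele named tm1(cre/ERT2)Tyj on a B6.129 background, with Mlxloxp/loxp, Mycloxp/loxp or both. Rosa26 is active in most cell types, so Cre was not limited to hepatocytes there. The adenoma mice carried Alb_CreERT2, driven by the albumin promoter of hepatocytes, with Mlxloxp/loxp. WT mice were C57/B6, with no Cre given, so in every comparison of a knockout with WT the deletion, the Cre and the strain cannot be told apart. The DKO and MlxKO libraries were all male, MycKO and WT held 4 males and 2 females each, the adenomas were labelled as 4 females and 1 male, and old WT as 2 females and 3 males. Nothing in the labels ties each library to its own animal, so the spread behind each p-value may be partly technical.

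Myc, a transcription factor active in proliferating cells, binds DNA with Max at the E box, a short palindromic motif. Mlx pairs with ChREBP or MondoA, which respond to glucose and bind carbohydrate response elements made of paired E boxes. HNF4A is a nuclear receptor needed for the adult hepatocyte programme, from lipoproteins to clotting factors. FOXA1, FOXA2 and FOXA3 are forkhead proteins, and FOXA1 and FOXA2 are known as pioneer factors that open chromatin in early liver development. C/EBPα and C/EBPβ are leucine zipper proteins, the first tied to the quiescent, metabolic hepatocyte and the second to the acute phase and to regeneration. LRH-1, the product of Nr5a2, is a nuclear receptor of bile acid and cholesterol genes. PROX1 and HNF6, the product of Onecut1, are homeodomain proteins that act in liver bud growth and in the split between hepatocytes and bile duct cells.

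Total counts per library were 18226467 to 28476797 at 5 months, 34590164 to 37087490 in the adenomas and 16036626 to 18690029 in old WT. Most low counts of the adenomas were even numbers, 81.0 to 83.1% against 42.3 to 44.1% in old WT. Halving the adenoma counts left the same single call described below. Halving rescales the depth and cannot undo another difference in how these libraries were sequenced or counted. Myc averaged 1.31 ± 0.728 CPM in DKO and 1.67 ± 0.692 in MycKO, against 12.9 ± 6.75 in WT (SD, n = 5, 6 and 6). CPM here are counts relative to a TMM-scaled library size. Mlx averaged 17.0 ± 1.45 CPM in DKO and 18.95 ± 2.28 in MlxKO, against 26.4 ± 1.95 in WT (n = 5, 4 and 6). Mlx fell in DKO (log2 −0.61, adjusted p = 0.000887) and in MlxKO (−0.46, adjusted p = 0.0395), the second call being lost in 20 of 32 alternative fits, and Mlx reads were left in every knockout library. In the adenomas, labelled MlxKO, Mlx averaged 25.3 ± 4.14 CPM, against 38.7 ± 5.38 in old WT (−0.55, adjusted p = 0.0516), which did not pass. It passed with DESeq2 (0.0225), RLE size factors (0.0499), no sex term (0.0131), without adenoma 1 (0.0365) or without adenoma 4 (0.0402), and was −0.33 without adenoma 5 and −0.18 with the library total only. On the second principal component of the 5-month libraries (19.9% of the variance) MycKO 5, WT 2 and WT 5 lay apart, and on the third (11.7%) WT 1, MycKO 1 and MycKO 2. Adenoma 5 is labelled male, yet it had 985 CPM of Xist, a female-specific RNA, and 0 CPM over 4 Y-linked genes, so calls of the old set that change without it are given. Its male label was kept in the sex term of the fits, and fits on the libraries labelled female leave it out. All 10 hepatocyte markers, all 9 biliary and all 10 Kupffer cell markers had counts in every group. In whole tissue, fewer cells of a type and less RNA per cell cannot be told apart.

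RefSeq lists 14 promoters for the 9 genes in GRCm38.p6, each from 250 bases before the start site to 50 after it. The promoters of the 5 factors whose RNA passed a test below are printed 5′ to 3′ on the coding strand, with the 2 motif matches they hold in capitals (the FOXA motif in Foxa1, the E box in Onecut1), because Myc and the Mlx partners act through E boxes. For Hnf4a the promoter of the start site used in adult liver is shown. Prox1 has another listed start site (chr1:190169515), whose promoter is not shown and holds none of the motifs. The counts are per gene and do not part the start sites.

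Cebpa promoter (chr7:35119043-35119342, plus strand): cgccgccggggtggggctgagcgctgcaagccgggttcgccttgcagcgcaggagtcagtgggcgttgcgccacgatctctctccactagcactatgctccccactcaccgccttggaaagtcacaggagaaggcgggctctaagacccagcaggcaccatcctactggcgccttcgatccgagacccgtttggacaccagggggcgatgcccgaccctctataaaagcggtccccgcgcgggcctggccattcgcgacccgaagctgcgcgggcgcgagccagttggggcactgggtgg

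Hnf4a promoter (chr2:163546905-163547204, plus strand): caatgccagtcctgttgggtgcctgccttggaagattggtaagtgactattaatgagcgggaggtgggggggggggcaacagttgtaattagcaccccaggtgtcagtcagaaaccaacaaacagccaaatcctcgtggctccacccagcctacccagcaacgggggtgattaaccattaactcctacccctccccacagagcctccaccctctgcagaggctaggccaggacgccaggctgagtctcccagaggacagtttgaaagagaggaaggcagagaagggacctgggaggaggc

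Foxa1 promoter (chr12:57546062-57546361, minus strand): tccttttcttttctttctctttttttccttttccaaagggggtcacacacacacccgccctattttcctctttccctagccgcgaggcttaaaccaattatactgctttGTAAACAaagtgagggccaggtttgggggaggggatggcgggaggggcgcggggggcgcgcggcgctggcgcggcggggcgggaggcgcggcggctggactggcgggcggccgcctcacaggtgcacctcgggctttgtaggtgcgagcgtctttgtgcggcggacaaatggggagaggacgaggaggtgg

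Prox1 promoter (chr1:190170778-190171077, minus strand): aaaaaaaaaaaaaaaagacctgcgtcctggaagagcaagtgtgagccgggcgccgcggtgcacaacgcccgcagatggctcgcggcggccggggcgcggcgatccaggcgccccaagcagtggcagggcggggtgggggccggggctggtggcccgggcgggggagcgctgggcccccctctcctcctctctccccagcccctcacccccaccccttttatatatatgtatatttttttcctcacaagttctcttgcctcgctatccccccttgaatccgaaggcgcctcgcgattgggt

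Onecut1 promoter (chr9:74861671-74861970, plus strand): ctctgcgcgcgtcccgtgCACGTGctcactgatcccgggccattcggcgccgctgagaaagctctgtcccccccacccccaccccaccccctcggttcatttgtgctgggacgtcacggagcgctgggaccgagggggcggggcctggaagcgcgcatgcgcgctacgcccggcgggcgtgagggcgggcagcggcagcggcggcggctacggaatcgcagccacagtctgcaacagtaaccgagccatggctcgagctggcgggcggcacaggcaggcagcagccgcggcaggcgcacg

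The E box CACGTG occurred once, in the Onecut1 promoter, 232 to 227 bases before its start. That motif lay in 7.15% of all 32851 RefSeq mouse promoters of the same length. The carbohydrate response element was found in 0 of the 14 promoters and in 0.119% of all of them. The capitals in the Foxa1 promoter mark the FOXA motif TGTTTAC read on the other strand, 141 to 135 bases before the start, which 3.65% of all promoters hold. Nr5a2 held the C/EBP motif TTGCNNAA in the promoter of one start site, a motif found in 10.8% of all promoters. The HNF4 motif CAAAGTCCA was in none of the 14 and in 0.475% of all. Both strands were searched, and a match says only that the letters occur in the window.

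Per transcript length, the 9 factors spanned a wide range in WT liver at 5 months. C/EBPα, HNF4A and C/EBPβ transcripts led with 385.7 ± 70.0, 365.7 ± 62.3 and 266.2 ± 72.7 TPM (transcript abundance corrected for length, the authors' values, SD, n = 6), and the ranges of these 3 overlapped. Foxa3 followed at 60.1 ± 20.4 TPM. Foxa2, Prox1 and Nr5a2 averaged 28.1 ± 8.88, 24.5 ± 10.3 and 16.8 ± 6.81 TPM with overlapping ranges, and Onecut1 and Foxa1 were lowest at 11.7 ± 9.62 and 10.1 ± 1.64 TPM. Onecut1 was the most variable of them, with a highest WT library 12.7 times the lowest. Levels of the 5-month and old tables were scaled separately and are not compared with each other.

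**Figure D1:**
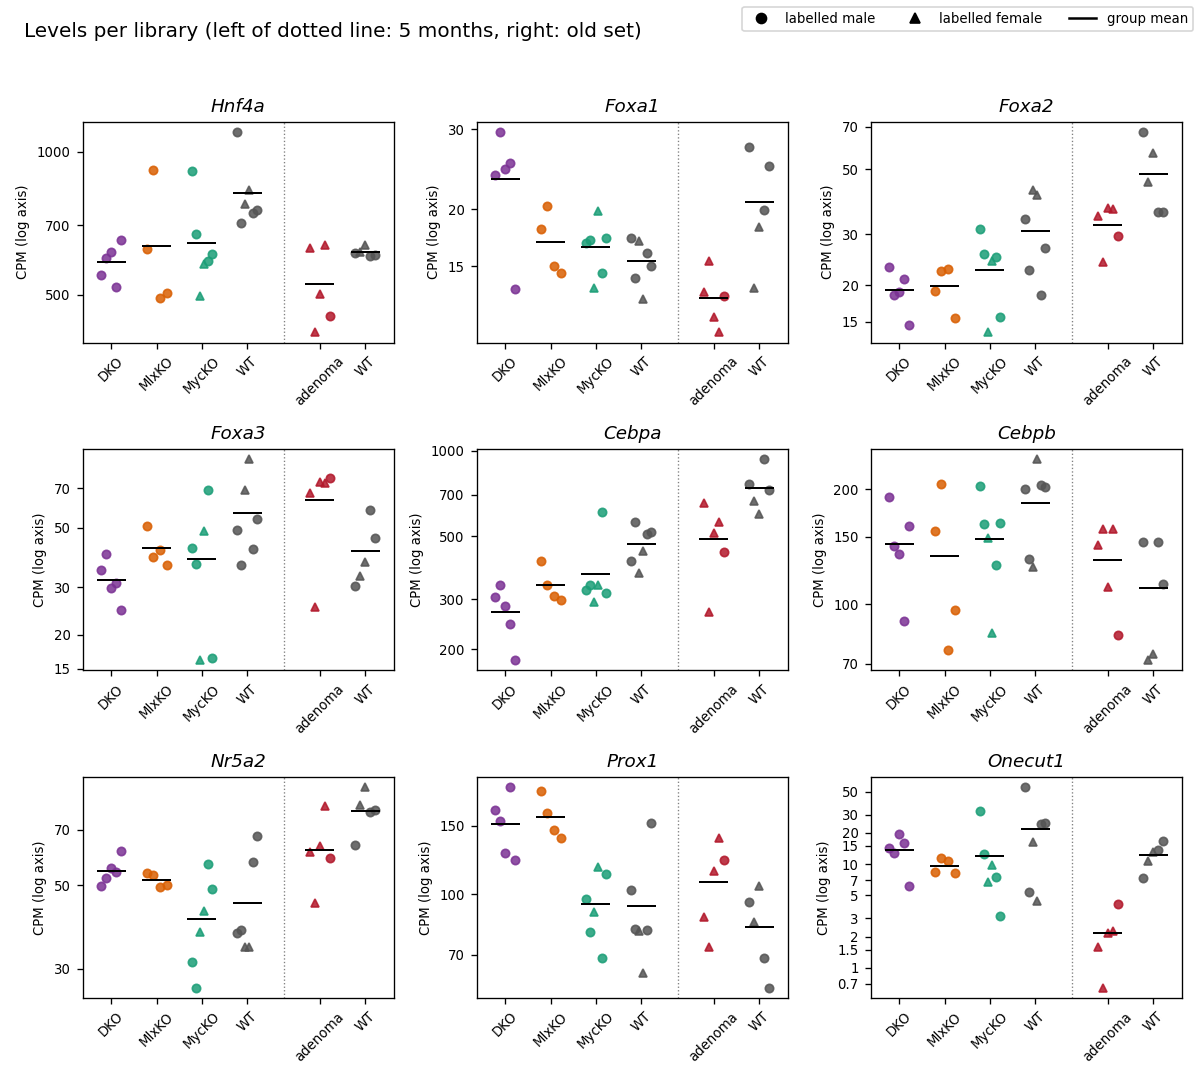
Level of each factor in every library, in CPM on a log axis whose range differs between panels. Circles are libraries labelled male, triangles libraries labelled female, bars are group means. In DKO the Cebpa and Hnf4a points lie below all WT points (at most 337.0 against at least 372.6 CPM, and at most 652.3 against at least 705.7 CPM), and in the adenomas Onecut1 lies below all old WT points.

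DKO liver had less Cebpa and Hnf4a RNA and more Foxa1 and Prox1 RNA than WT liver. These 4 of the 9 factors passed the test in DKO against WT (edgeR quasi-likelihood test, Benjamini-Hochberg adjusted p under 0.05 over all genes), 2 in each direction, beside 18.5% of the 13397 genes tested, 7.58% higher and 10.9% lower. The median log2 fold change of the 9 was −0.55, beside −0.02 over all genes tested.

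Cebpa fell most clearly. The 5 DKO libraries had 304.4, 337.0, 283.8, 245.4 and 183.1 CPM, and the 6 WT libraries 372.6 to 561.7 CPM with a median of 476.2. No DKO library reached the lowest WT library. The log2 fold change was −0.89 ± 0.19 (SE, 95% interval −1.26 to −0.52, adjusted p = 0.00405), and the call held in all 32 alternative fits, at −0.73 or lower. Its family member Cebpb, the C/EBP of the acute phase, had 190.7, 142.1, 135.6, 90.3 and 160.7 CPM in DKO and 125.0 to 239.4 CPM in WT, with overlap, and did not pass (−0.44 ± 0.27, adjusted p = 0.252). The ratio of Cebpa to Cebpb TPM was 1.13 ± 0.357 in DKO and 1.54 ± 0.494 in WT, with overlapping ranges.

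Hnf4a had 548.6, 597.3, 613.3, 520.1 and 652.3 CPM in DKO, against 705.7 to 1101 CPM in WT with a median of 763.0. The groups did not overlap, and WT 1 stood well above the other WT libraries. The log2 fold change was −0.55 ± 0.18 (adjusted p = 0.04), near the threshold. The call was kept in 16 of 32 alternatives, with every sign negative (−0.72 to −0.37, adjusted p up to 0.109). It was lost without any one of DKO 1, 2, 3, 4 or 5, MycKO 2, 3 or 4, WT 1 or WT 4, with values of −0.59 to −0.43 and adjusted p of 0.0516 to 0.108. With WT 1, MycKO 1 and MycKO 2 left out together it was −0.37 (adjusted p = 0.109). The call was also lost with DKO and WT fitted alone (−0.49, 0.0636), males only (−0.49, 0.0994), no sex term (−0.48, 0.0551), no filter (−0.53, 0.0668) and the library total only (−0.42, 0.0996).

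Of the 3 FOXA genes, Foxa1 passed the test and Foxa2 and Foxa3 did not. Foxa1 had 23.8, 29.6, 24.6, 25.4 and 13.4 CPM in DKO, against 12.7 to 17.3 CPM in WT with a median of 15.5. DKO 5 lay within the WT range and the other 4 DKO libraries above it. Foxa1 rose with a log2 fold change of 0.59 ± 0.17 (adjusted p = 0.0211), called in 27 of 32 alternatives. The call was lost without DKO 2 (0.50, adjusted p = 0.0551), DKO 4 (0.56, 0.0509) or WT 2 (0.56, 0.0583), with WT 2, WT 5 and MycKO 5 left out together (0.56, 0.0926), and with DKO and WT fitted alone (0.58, 0.0776).

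Foxa2 had 23.1, 18.5, 18.98, 20.99 and 14.7 CPM in DKO and 18.5 to 42.7 CPM in WT. Foxa3 had 34.7, 39.7, 29.8, 31.3 and 24.7 CPM in DKO and 36.2 to 89.5 CPM in WT. All 5 DKO libraries lay below the WT mean of both genes, but the ranges overlapped and neither passed (Foxa2 −0.59 ± 0.24, adjusted p = 0.0843; Foxa3 −0.70 ± 0.32, adjusted p = 0.131). Foxa2 passed in 3 of 32 alternatives (lowest adjusted p 0.033), among them the fit without WT 5 (−0.73, adjusted p = 0.0374). Within each library, Foxa1 made up 18.0 to 24.6% of the summed FOXA TPM in DKO and 5.88 to 14.5% in WT, ranges that did not overlap. The Foxa1 share was 13.1 to 17.6% in MlxKO and 8.95 to 26.1% in MycKO, whose highest library lay above every DKO library. Foxa1 has the longest transcript of the FOXA genes (3191 bases, Foxa2 2128, Foxa3 2037), and the part of length in this share was not tested. Foxa3 made up 48.2 to 54.3% in DKO and 55.2 to 67.6% in WT. The summed FOXA TPM was 75.0 ± 17.1 in DKO and 98.2 ± 28.3 in WT, with overlap.

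Prox1 had 164.1, 153.6, 127.7, 188.4 and 122.6 CPM in DKO, against 62.8 to 152.2 CPM in WT with a median of 81.2. WT 6, the highest WT library, lay above 2 of the DKO libraries, and the other 5 WT libraries lay below all of them. Prox1 rose with a log2 fold change of 0.65 ± 0.20 (adjusted p = 0.0268), called in 25 of 32 alternatives. Without DKO 1, DKO 4 or WT 2 it was 0.62, 0.56 and 0.60 with adjusted p of 0.0563, 0.0756 and 0.0757, and with WT 2, WT 5 and MycKO 5 left out together it was 0.49 (adjusted p = 0.144). With males only, and with DKO and WT fitted alone, it was 0.54 each time (adjusted p = 0.0831 and 0.109). The remaining homeodomain factor, Onecut1, had 14.3, 12.9, 19.5, 16.1 and 6.18 CPM in DKO and 4.37 to 55.6 CPM in WT, and its −0.90 ± 0.53 was within the spread (adjusted p = 0.233). Nr5a2 had 49.8 to 61.5 CPM in DKO and 34.2 to 67.6 CPM in WT, a log2 difference of 0.21 ± 0.19 (adjusted p = 0.451).

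**Figure D2:**
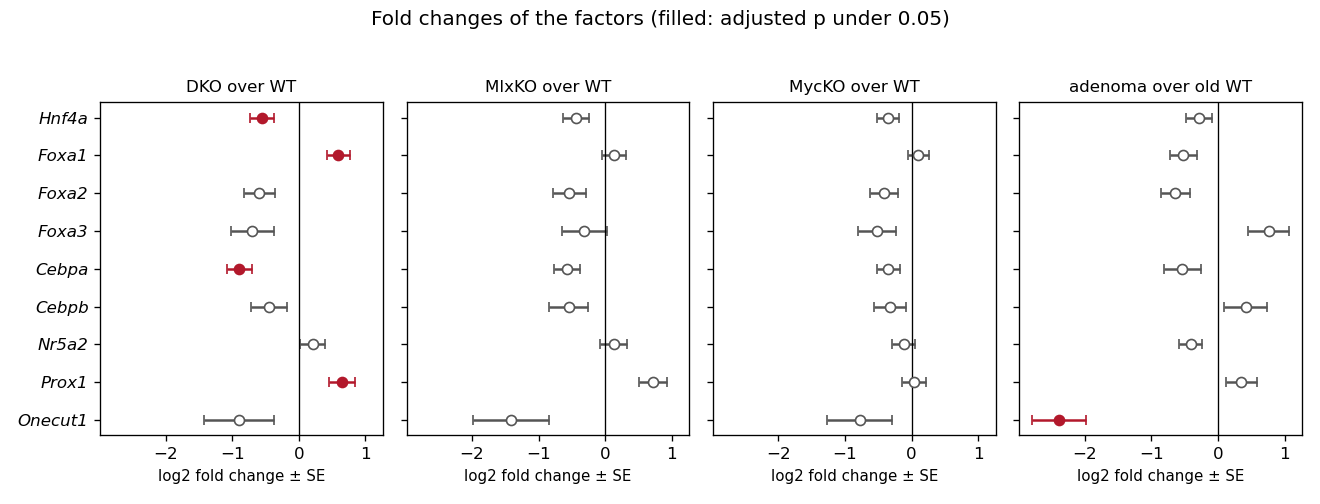
Log2 fold change of each factor with its standard error in DKO, MlxKO and MycKO over WT at 5 months and in adenoma over old WT. Filled red points have an adjusted p under 0.05: Hnf4a, Foxa1, Cebpa and Prox1 in DKO, and Onecut1 in the adenomas at −2.38.

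Fold changes over all genes varied with transcript length and GC content. In DKO against WT the median log2 fold change was −0.41 in the fifth of genes with the shortest transcripts and 0.30 in the fifth with the longest, and it was 0.16 in the fifth with the lowest GC content and −0.21 in the fifth with the highest. Prox1 has the longest transcript of the 9 (7913 bases, 45.3% GC) and Cebpb the shortest (1504 bases, 67.2% GC), with Cebpa at 2626 bases and 62.6% GC. With offsets for length and GC content, an alternative chosen after seeing the data, Prox1 was 0.35 (adjusted p = 0.108) and no longer called. Cebpa, Hnf4a and Foxa1 kept their calls, at −0.78, −0.58 and 0.66 with adjusted p of 0.00909, 0.0272 and 0.0139.

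**Figure D3:**
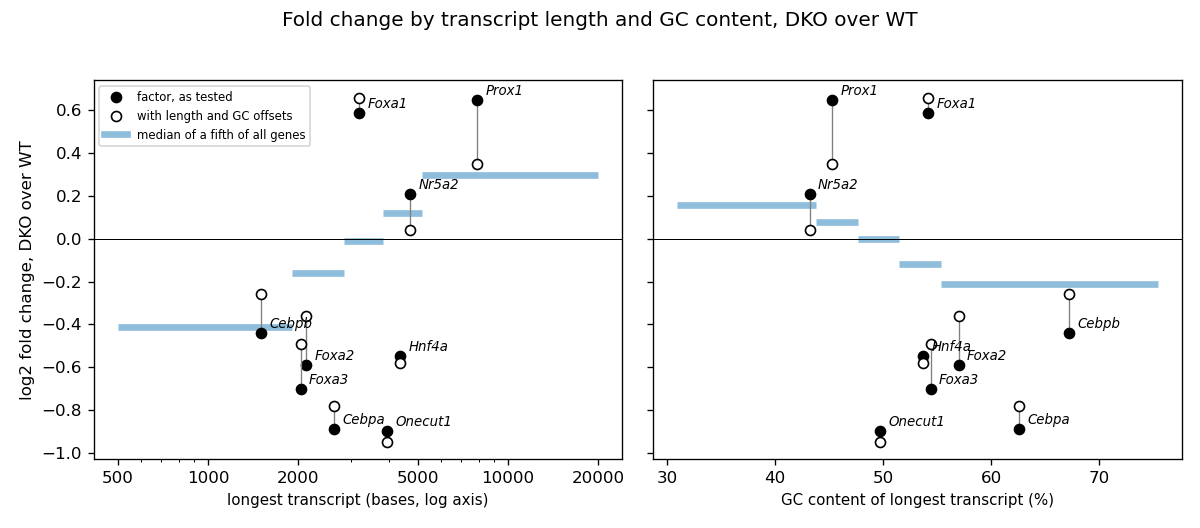
Log2 fold change in DKO over WT against the longest transcript of each gene (left, log axis) and its GC content (right). Blue bars are medians over 5 equal bins of all genes tested, filled points the factors as tested and open points the same with length and GC offsets. The bars climb with length, from −0.41 to 0.30, and Prox1 is at 0.35 with offsets, against 0.65 as tested, while Foxa1 and Hnf4a stay close to their values.

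In DKO against WT, Kupffer cell and macrophage markers had the called share (70%) furthest above the 18.5% of all genes. Of the 10 Kupffer cell and macrophage markers 7 fell, with a list median of −1.01, and their summed level was 141 to 266 CPM in DKO and 191 to 522 CPM in WT. The summed level of 10 hepatocyte markers was 76100 to 107000 CPM in DKO and 89200 to 149000 CPM in WT, and 2 of them fell. Summed biliary markers were 66.3 to 130 CPM in DKO and 41.9 to 77.5 CPM in WT, and 1 of 7 tested rose. Sinusoidal endothelial markers rose in 3 of 9 cases (median 0.39), stellate and fibroblast markers in 2 of 9, lymphatic endothelial markers in 1 of 4 tested, and of 6 T and NK cell markers 1 rose and 1 fell. The called shares of hepatocyte (20%), biliary (14.3%) and stellate and fibroblast markers (22.2%) were near the 18.5% of all genes. Endothelial cells, the lymphatic ones above all, also express Prox1, and the summed lymphatic markers were 73.9 to 117 CPM in DKO and 45.5 to 135 CPM in WT. The part of cell type makeup in the values of the factors was not tested.

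In the authors' deposited table, which gives folds as WT over DKO, 5 factors had an adjusted p under 0.05. These were Cebpa (log2 0.78, adjusted p = 0.029), Foxa1 (−0.62, 0.0123), Foxa2 (0.67, 0.0318), Foxa3 (0.80, 0.0396) and Prox1 (−0.71, 0.0255). Hnf4a had 0.46 in the authors' deposited table with an adjusted p of 0.223. For the authors' comparisons the share of all genes under 0.05 was not computed, so their counts of factors have no background beside them.

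None of the 9 passed the threshold in MlxKO or MycKO against WT. In MlxKO against WT 1.69% of all genes and 0 factors were called by edgeR. DESeq2 called 1 factor, beside 849 of all genes, and limma-voom called 0 factors. There 5 of the 9 had an unadjusted p under 0.05, beside 2962 of the 13397 genes tested. In MycKO against WT 0.0896% of all genes were called, and 0 factors, with 0 called by DESeq2 or limma-voom. There 1 of the 9 had an unadjusted p under 0.05, beside 1027 of the 13397 genes tested. These comparisons and that of DKO share the WT libraries, so their values are given side by side and not correlated.

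Prox1 had 184.2, 161.7, 145.7 and 139.6 CPM in MlxKO, 68.8 to 117.2 CPM in MycKO and 62.8 to 152.2 CPM in WT. All but 1 WT library lay below the 4 MlxKO libraries. Its log2 fold change was 0.72 ± 0.21 in MlxKO against WT (adjusted p = 0.0717) and 0.03 ± 0.18 in MycKO against WT (adjusted p = 0.986). Without WT 6 the MlxKO value was 0.94 (adjusted p = 0.00906), and with length and GC offsets it was 0.45 (adjusted p = 0.138). The MlxKO sign was positive in all 32 alternative fits, and the MycKO sign was kept in 24 of 32.

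Cebpa had 408.5, 336.8, 306.9 and 297.8 CPM in MlxKO, 292.9 to 610.4 CPM in MycKO and 372.6 to 561.7 CPM in WT. The log2 fold change was −0.57 ± 0.20 in MlxKO against WT (adjusted p = 0.116) and −0.35 ± 0.17 in MycKO against WT (adjusted p = 0.656). The single high MycKO library was MycKO 5, and the other 5 lay between 292.9 and 338.0 CPM, below every WT library.

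Hnf4a had 624.4, 913.1, 492.1 and 503.1 CPM in MlxKO and 497.9 to 911.2 CPM in MycKO. Its log2 fold change against WT was −0.44 ± 0.19 in MlxKO (adjusted p = 0.189) and −0.36 ± 0.16 in MycKO (adjusted p = 0.614). MlxKO 2 and MycKO 1 reached into the WT range. Foxa1 differed from WT by 0.14 ± 0.18 in MlxKO and 0.10 ± 0.15 in MycKO (adjusted p = 0.681 and 0.935), with 14.5 to 20.3 CPM in MlxKO and 13.4 to 19.8 CPM in MycKO.

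Onecut1 had 8.48, 11.4, 10.6 and 8.17 CPM in MlxKO, 3.15 to 32.6 CPM in MycKO and 4.37 to 55.6 CPM in WT. The log2 differences from WT were −1.41 ± 0.58 in MlxKO (adjusted p = 0.163) and −0.78 ± 0.48 in MycKO (adjusted p = 0.748), the widest errors of the 9. The remaining 4, Foxa2, Foxa3, Cebpb and Nr5a2, lay between −0.55 and 0.13 in MlxKO and between −0.52 and −0.12 in MycKO, with adjusted p of at least 0.215.

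Set against each other, the knockouts gave 0 called factors by edgeR. In DKO against MycKO 11.9% of all genes were called, and 3923 of the 13397 genes tested had an unadjusted p under 0.05. So did 3 of the 9 factors. These were Prox1 (0.62 ± 0.20, adjusted p = 0.0504), Cebpa (−0.54 ± 0.19, adjusted p = 0.0609) and Foxa1 (0.49 ± 0.17, adjusted p = 0.0612). DESeq2 called all 3, beside 2166 of all genes, and limma-voom called Prox1. In the authors' deposited table, as MycKO over DKO, Prox1 was −0.68 with an adjusted p of 0.0434, the only one of the 9 under 0.05. Prox1 did not overlap between these groups, at 122.6 to 188.4 CPM in DKO and 68.8 to 117.2 CPM in MycKO. Over the 32 alternatives Prox1 was called in 9, Foxa1 in 6 and Cebpa in 5, so the side of the threshold turned on the setting.

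In DKO against MlxKO 0.0373% of all genes and 0 factors were called, and DESeq2 and limma-voom called 0 of the 9. An unadjusted p under 0.05 was found for 1 of the 9 (Foxa1, 0.46 ± 0.18, adjusted p = 0.684) and for 806 of the 13397 genes tested. Prox1 differed by −0.06 ± 0.21 and Cebpa by −0.32 ± 0.20 in that comparison. The Myc by Mlx interaction, the departure of DKO from the sum of both single deletions on the log scale, was called by edgeR for 0 of the 9 and 0% of all genes. There 0 factors had an unadjusted p under 0.05, and DESeq2 and limma-voom called 0 of the 9, while over all genes 469 had an unadjusted p under 0.05 and DESeq2 called 4. The largest estimate was that of Onecut1, 1.29 ± 0.75.

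Females and males at 5 months, compared within MycKO and WT, gave 0 called factors, with 0 at an unadjusted p under 0.05, 0 called by DESeq2 or limma-voom and 3.48% of all genes called by edgeR. Over all genes tested 2302 had an unadjusted p under 0.05. Onecut1 was −1.07 ± 0.54 in females relative to males (adjusted p = 0.316). Nr5a2 was −0.28 ± 0.19 (adjusted p = 0.464), and it was called, at −0.55 with adjusted p = 0.0115, in an alternative chosen after seeing the data that left out WT 1, MycKO 1 and MycKO 2.

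The adenomas held less Onecut1 RNA than old WT liver, and the other 8 factors did not pass the test. This was 1 of 9 in adenoma against old WT, beside 16.4% of the 13954 genes tested, 7.68% lower. Onecut1 had 1.58, 0.643, 2.17, 2.25 and 4.10 CPM in the adenomas, against 7.31, 10.8, 13.1, 13.7 and 16.7 CPM in old WT. Every adenoma lay below every old WT liver. The mean was 2.15 ± 1.27 CPM in the adenomas and 12.3 ± 3.52 CPM in old WT (SD, n = 5 each), and the log2 fold change was −2.38 ± 0.41 (95% interval −3.18 to −1.58, adjusted p = 0.00491). The call held in 18 of 19 alternatives (−2.83 to −2.02), among them the fit without adenoma 5 (−2.83, adjusted p = 0.0139), and was lost with the libraries labelled female alone (−2.86, adjusted p = 0.0502). In the authors' deposited table Onecut1 was 2.51 as old WT over adenoma, with an adjusted p of 9.8e-08.

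Hnf4a stayed among the most abundant factors in the adenomas, with 625.8, 416.3, 502.6, 634.5 and 450.0 CPM, against 602.7 to 635.9 CPM in old WT. The adenomas were spread and old WT tight, and 2 of 5 adenomas lay within the old WT range. The log2 difference was −0.28 ± 0.19 (95% interval −0.66 to 0.10, adjusted p = 0.341) and 0.09 with no scaling beyond the library total. Cebpa had 652.7, 270.5, 514.3, 560.3 and 438.5 CPM in the adenomas and 764.3, 668.2, 600.1, 934.6 and 725.2 CPM in old WT, with 1 adenoma inside the old WT range (−0.53 ± 0.28, adjusted p = 0.206). Cebpb had 143.2, 157.8, 111.0, 157.3 and 83.0 CPM in the adenomas and 71.5 to 145.6 CPM in old WT (0.42 ± 0.32, adjusted p = 0.393), and without adenoma 5 it was called at 0.99 (adjusted p = 0.0354). The ratio of Cebpa to Cebpb TPM was 0.987 to 3.04 in the adenomas and 3.02 to 5.38 in old WT.

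None of the 3 FOXA genes passed in the adenomas, and their estimates differed in sign. Foxa3 had 66.9, 25.3, 73.7, 73.3 and 76.1 CPM in the adenomas and 30.5, 33.2, 37.3, 58.0 and 45.8 CPM in old WT. Adenoma 2 was the lowest of all 10 and the other 4 lay above every old WT liver. Foxa3 did not pass with it (0.76 ± 0.31, adjusted p = 0.109) and was called without it (0.93, adjusted p = 0.0127). Foxa2 had 24.0 to 36.8 CPM in the adenomas and 35.7 to 67.4 CPM in old WT (−0.64 ± 0.22, adjusted p = 0.073). Foxa1 had 10.7 to 15.4 CPM in the adenomas and 13.5 to 27.4 CPM in old WT (−0.52 ± 0.20, adjusted p = 0.0987). Without the sex term Foxa1 was called, at −0.70 (adjusted p = 0.0228). In the authors' deposited table Foxa1 was 0.68 as old WT over adenoma with an adjusted p of 0.0358. Foxa3 made up 46.0 to 69.8% of the summed FOXA TPM in the adenomas and 29.1 to 57.7% in old WT.

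Nr5a2 had 44.95 to 80.8 CPM in the adenomas and 64.0 to 91.0 CPM in old WT (−0.41 ± 0.18, adjusted p = 0.129). Prox1 had 73.4 to 139.1 CPM in the adenomas and 57.6 to 105.2 CPM in old WT (0.35 ± 0.23, adjusted p = 0.326). With no scaling beyond the library total the median of all genes was 0.42, against 0.04 as tested, and under that scaling Foxa3 (1.12) and Prox1 (0.71) were called as well as Onecut1 (−2.02). Foxa1 was then at −0.13, below that median.

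The makeup of the adenoma libraries differed from old liver. Summed hepatocyte markers were 20500 to 40900 CPM in the adenomas, against a median of 113000 CPM in old WT, a sum dominated by Alb (−3.81 ± 0.44, adjusted p = 0.000896), and 2 of 10 fell. Summed biliary markers were 82.4 to 657 CPM in the adenomas and 67.1 to 83.6 CPM in old WT, and 2 of 7 rose. Neutrophil markers summed to 7.93 to 84.8 CPM in the adenomas and 4.56 to 10.0 CPM in old WT, and T and NK cell markers to 6.15 to 26.9 CPM in the adenomas and 2.35 to 3.84 CPM in old WT. The part of these differences in the Onecut1 value was not tested. Old WT liver lacks the Cre and the Mlx deletion of the adenoma mice. The higher total counts and the mostly even low counts were found in the adenoma libraries alone. Deletion, strain, tumour growth and how the libraries were sequenced or counted therefore cannot be told apart.

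Genes listed as known targets of these factors were also read, from lists that share some members. Whether their changes followed those of the factors or came from the deletions by another route was not tested. Of 24 HNF4A targets tested, 12 fell and 1 rose in DKO against WT, with a median log2 fold change of −0.66 beside −0.02 over all genes. F7, clotting factor VII, fell by 0.97 ± 0.13 to 42.2 ± 3.655 CPM in DKO, against 80.1 ± 12.9 CPM in WT (adjusted p = 0.000145). Apom, a lipoprotein component, Kng1, the kininogen precursor, and Slc10a1, the bile acid uptake transporter, changed by −0.96, −0.76 and −0.80 (adjusted p of 0.00145, 0.00183 and 0.00223). The 1 that rose was Mttp, which loads lipid onto lipoproteins, named after its value was seen (0.50 ± 0.14, adjusted p = 0.0171). With length and GC offsets 6 of the 24 fell and the median was −0.33, and without WT 2 there were 7 that fell. In MlxKO against WT 6 of the 24 fell and 0 rose (median −0.64), among them F7 (−0.80), Slc10a1 (−0.93), Apom (−1.02) and Slc2a2, the hepatic glucose transporter (−3.23). That count was 3 without MlxKO 2 or without MlxKO 3, 11 without WT 6 and 1 with the compared groups alone. In MycKO against WT 0 of the 24 were called by edgeR, DESeq2 or limma-voom, and the median was −0.09. There 3 of the 24 had an unadjusted p under 0.05, beside 1027 of the 13397 genes tested.

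The other target lists held 1 to 3 called genes each in DKO against WT. The called shares were 5.88% of C/EBP, 25% of FOXA and 23.1% of LRH-1 targets, beside 18.5% of all genes. Of 17 C/EBP targets 1 fell, Fasn, the fatty acid synthase (−0.96, adjusted p = 0.0267). Of 12 FOXA targets 3 fell, Slc10a1, Ttr and Serpina6, the last the corticosteroid-binding globulin (−1.76, adjusted p = 0.0202), and of 13 LRH-1 targets 3 fell, Gls2, Scarb1 and Abcb11. Among 34 other hepatic transcription factors and cofactors 5 rose and 2 fell (20.6%), near the background share of 18.5%. Nr1i3, the xenobiotic receptor CAR, and Tbx3, a T-box factor of liver development, rose by 0.82 and 0.74 (adjusted p = 0.0152 and 0.0215). Dbp, a clock output factor, averaged 1.55 ± 0.623 CPM in DKO and 11.5 ± 21.2 CPM in WT, a WT spread wider than its mean (−3.50 ± 1.01, adjusted p = 0.0224).

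In adenoma against old WT 8 of 24 HNF4A targets fell and 0 rose, with a median of −0.65 beside 0.04 over all genes. Slc2a2, the glucose transporter, averaged 51.7 ± 27.6 CPM in the adenomas and 326.0 ± 78.7 CPM in old WT (−2.43 ± 0.29, adjusted p = 0.000951). Apoa2, a lipoprotein component, and Slc10a1 changed by −1.49 and −1.85. Of 17 C/EBP targets 1 rose (Hp) and 2 fell (Alb and Adh1), of 12 FOXA targets 1 rose (Igfbp1) and 2 fell (Slc10a1 among them), and of 13 LRH-1 targets 2 rose and 3 fell. Among 35 other hepatic factors 2 rose and 5 fell (20%). The shares of the C/EBP list (17.6%) and of these factors were near the 16.4% of all genes called. Those of the FOXA and LRH-1 lists were 25% and 38.5%. With the libraries labelled female alone 0 genes of the C/EBP, FOXA, LRH-1 and hepatic factor lists fell. Ddit3, the stress factor CHOP, was higher by 1.15, and Gata4, a zinc finger factor, and Tbx3 were at −0.94 and −2.49. Of 16 tested fetal and progenitor genes 9 rose and 0 fell, led by H19, Tspan8, Spp1 and Scd2 (13.03, 4.92, 3.35 and 3.79), with a median of 2.43. The count was 3 without adenoma 5, 6 without old WT 2 or old WT 3, 5 with limma-voom and 0 with the libraries labelled female alone. H19, a fetal non-coding RNA, averaged 2762 ± 3354 CPM in the adenomas, a spread wider than its mean, and 0.401 ± 0.338 CPM in old WT. The count of HNF4A targets that fell was 3 without adenoma 5, without old WT 2 or without old WT 3, 4 with the library total only, and 1 with the libraries labelled female alone.

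**Figure D4:**
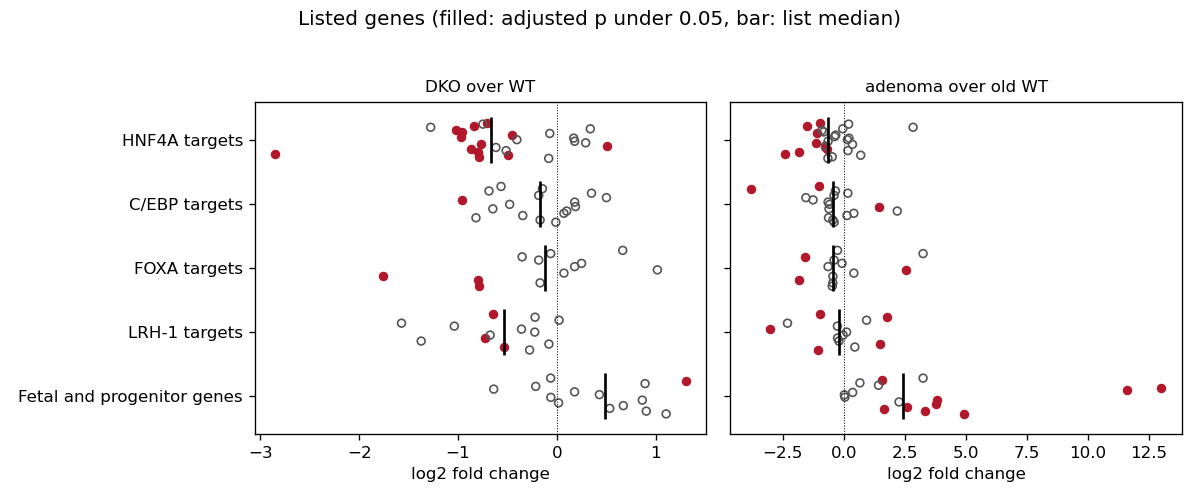
Log2 fold changes of listed genes in DKO over WT (left) and adenoma over old WT (right), whose axes differ in range. Each point is a gene, filled where the adjusted p is under 0.05, and the bar is the median of the list. HNF4A targets lie mostly left of 0 in both panels (medians −0.66 and −0.65), and fetal and progenitor genes lie right of 0 in the adenomas (median 2.43).

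The genes whose levels most resembled each factor over the 21 libraries at 5 months, by Pearson's r of log2(CPM + 1) over 13388 genes, are given as a description. All points share their library's depth and composition. Genotypes and sexes were pooled, so differences between groups also enter r. Prox1 was closest to Epm2aip1, Arid1a and Ubn2 (r = 0.94, 0.94 and 0.93), and Nr5a2 to Yes1 and Npepps (0.94 each). Those 5 have transcripts of 4215 to 14644 bases. Cebpa was closest to Mrpl34, Abhd14b and Naa10 (0.87, 0.87 and 0.86), with transcripts of 607 to 2156 bases, and Hnf4a to Gne, Arhgef37 and Sds (0.89, 0.86 and 0.84). Foxa1 was nearest to Tbx3, Pkd2 and Atp1b2 (0.76, 0.75 and 0.74), Foxa2 to Rgs3, Cldn14 and Cep85 (0.84, 0.83 and 0.82), and Foxa3 to Nab2, Txnl4a and Smarcd2 (0.81, 0.75 and 0.75). Cebpb and Onecut1 had no gene above 0.75 and 0.73.

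Reads of some factors may be shared with overlapping genes, since whether counting used strand is not stated in the labels or files. Prox1 shares 133 exon bases with the antisense gene Prox1os, Cebpa 51 with Gm45091 and Cebpb 312 with Tmem189, all on the opposite strand. Onecut1 shares 2171 of its 4113 exon bases with Gm20649 on its own strand. Over the 21 libraries Tmem189 had 16287 counts against 68572 for Cebpb, and Prox1os had 2637 against 53880 for Prox1. Gm45091 had 209 against 164077 for Cebpa, and Gm20649 had 38 against 6682 for Onecut1. Counts of the overlapping genes were not taken in the old set, where Onecut1 was called.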

How the data were processed

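Poly(A) RNA of 31 mouse liver libraries was measured, and the authors deposited total counts per gene, TPM per gene, and log2 fold changes and p-values of their own comparisons, in 1 table for each age set. Per the submitters' processing notes the reads were placed on GRCm38.p6. The sources used here do not give the aligner, the counter or the test of the authors. Oligo(dT) and random hexamers were used to make the libraries, per the labels' protocols. The 42 and 20 normalized columns left were not used, and 0 count columns were without a sample.

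Counts were fitted with edgeR 4.0.16 in R 4.3.3, each set on its own (5 months 21 libraries, 16 residual degrees of freedom, common BCV 0.261; old set 10 libraries, 7 and 0.385). Genes passed filterByExpr (minimum count 10), TMM scaled the libraries, and the quasi-likelihood model held a mean for each group and a term for the labelled sex. Calls are Benjamini-Hochberg adjusted p under 0.05 over all genes tested, and all adjusted p-values are from this fit unless another tool is named. SE was computed as the size of the log2 fold change over the root of F. The 95% intervals used the normal multiple of SE, so they are somewhat narrower than the test itself would give. Alternatives used DESeq2 1.42.0, limma-voom (limma 3.58.1), other scalings, filters and sample sets. The test was also run on counts simulated from a model like its own. That run cannot show how the test handles the trends with length and GC content or the mostly even adenoma counts. No replicates agreed within sampling noise (closest pair, MlxKO 3 and 4, chi-square 16.1 per gene). All 9 factors passed the filter in both sets. Named are the 9 factors, up to 4 called genes of smallest adjusted p per list and comparison, the 3 genes most like each factor, and Myc and Mlx, some of which are not reported here. The factors, lists and tests were chosen with earlier results of these data known. Promoters are from RefSeq (GRCm38.p6) and transcript lengths from GENCODE M21. Counting intervals are not printed, and the precision given is that between libraries.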

Additional observations from a re-analysis of the deposited data

Results flagged for a closer look

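Of 54 groups of libraries (9 factors in 6 groups), 4 held a library far from the others by Dixon's criterion, where chance alone gives about 1 in 20 groups, 2.7 here. The Hnf4a level of WT 1 at 5 months was 1101 CPM, with the next library at 828.2 CPM. The Cebpa level of MycKO 5 was 610.4 CPM, with the next at 338.0 CPM. The Onecut1 level of MycKO 1 was 32.57 CPM, with the next at 12.44 CPM. The Foxa3 level of adenoma 2 was 25.33 CPM, below the next at 66.94 CPM.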

How the results depend on the processing

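Cebpa in DKO kept its call in all 32 alternatives and Onecut1 in the adenomas in 18 of 19, and no called factor changed sign in any. In DKO against WT 4 factors were called, 2 with males only, 1 with the compared groups alone, and 1 to 5 when a library was left out. In MlxKO against WT 1 factor was called with DESeq2, and 0 to 1 with a library left out. In DKO against MycKO 3 were called with DESeq2, 2 without the sex term, and 1 each with RLE size factors, limma-voom, males only, the compared groups alone, length and GC offsets, or WT 1, MycKO 1 and MycKO 2 left out, the last 2 chosen after seeing the data, and 0 to 2 with a library left out. Leaving out those 3 libraries gave 1 in females against males. In adenoma against old WT 2 were called with DESeq2 or without the sex term, 3 with the library total only, 0 with the libraries labelled female only, and 1 to 2 with a library left out. The E box count was unchanged in the shorter promoter window. The cause of these moves was not tested.

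With the library total only, calls over all genes were 1314 higher and 751 lower in DKO against WT, against 1015 and 1460 as tested, 138 and 60 in MlxKO against WT, against 85 and 142, 606 and 176 in females against males, against 180 and 286, and 3384 and 425 in adenoma against old WT, against 1219 and 1071. The medians of all genes were then 0.106, 0.141, 0.152 and 0.42. Over all settings calls ran from 1218 to 3195 (2475 as tested) in DKO against WT, 38 to 1055 (227) in MlxKO against WT, 1 to 74 (12) in MycKO against WT, 892 to 2166 (1592) in DKO against MycKO, 1 to 47 (5) in DKO against MlxKO, 0 to 4 (0) in the interaction, 216 to 1683 in females against males and 165 to 3809 (2290) in adenoma against old WT. No paired analysis was possible because the replicate numbers are names given in accession order and pair no libraries across groups.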
